A study of Macaca mulatta with 28 samples.

Results

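RNA from punches of the ventral tegmental area (VTA) was compared between 5 rhesus macaques labelled Heavy drinkers and 11 Control macaques, 16 of the 28 animals sequenced, with 1 library per animal. Members were taken from the drinking phenotype in the sample labels. Drinkers labelled Very Heavy, of which there were 9, were left out of the main comparison and used only as a second reference group. All animals were adult males of wild-type genotype, in a narrow age range per the study's methods. The Heavy drinkers had 12 months of free access to ethanol followed by abstinence and re-access periods of 3 months, and tissue was taken after a last abstinence of 30 days. Controls were either calorically yoked or housing controls, but the labels do not say which control was which. Of the Heavy drinkers, 4 belonged to cohort 1 (replicates 1 to 4) and 1 to cohort 2 (replicate 5), against 8 and 3 controls, so cohort was kept as a covariate and the value of Heavy replicate 5 is given by itself where it stands apart. Library totals lay between 20978322 and 26742948 estimated counts in Heavy drinkers and between 12303914 and 27338669 in controls.

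The VTA holds the cell bodies of the mesolimbic dopamine neurons, which project to the nucleus accumbens and release dopamine when alcohol is drunk. These neurons sit among GABA and glutamate neurons and among the oligodendrocytes, astrocytes and microglia of a heavily myelinated region, so a punch measures the RNA of all of them together. Repeated drinking and withdrawal are known to act on dopamine signalling, on the kappa opioid and CRF stress systems, and on GABA and glutamate receptors. The comparison addresses whether a month after the last drink the animals with a heavy history still differ in VTA expression from animals without one. In bulk tissue, fewer cells of a type and less RNA per cell cannot be told apart.

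Levels are given as CPM, counts scaled to library size by TMM over the 28 libraries, for the 1 transcript that the table lists per gene symbol. A level or difference given under a gene's name is that of this transcript and need not follow the whole gene. Differences are log2 fold changes of Heavy minus Control from edgeR's quasi-likelihood test with cohort as a covariate, each with its standard error (SE), and adjusted p-values follow Benjamini and Hochberg over all 13769 transcripts tested. At an adjusted p under 0.05, 0 of the 13769 transcripts passed (0%), and the lowest adjusted p was 0.189. At an unadjusted p under 0.05 there were 1013 transcripts (7.36%), of which 395 were higher (2.87%) and 618 lower (4.49%) in Heavy drinkers. With the same counts, DESeq2's Wald test called 68 transcripts (0.494%) and limma-voom 3 (0.0218%). Of the 68 DESeq2 calls, 51 were transcripts at 0 in at least 1 library and 17 had counts in every library. On simulated counts of the same libraries and 13769 transcripts, the edgeR test recovered 10 of 60 changes of 0.5 on the log2 scale, 37 of 60 of 1 and 63 of 80 of 1.5. These changes were placed only in transcripts with at least 10 counts in each library. Cohort effects and GC trends were not simulated, so recovery in the real counts may be lower. Restricted to the 12 animals of cohort 1, the test again called 0 (0%), with 1204 transcripts (8.74%) below an unadjusted 0.05.

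**Figure D1:**
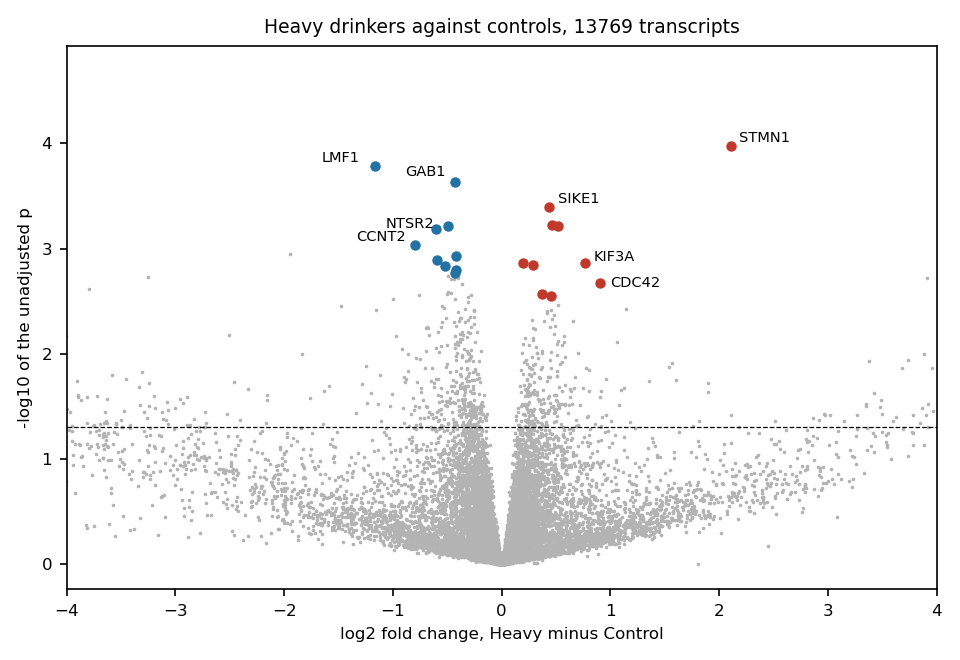
Each point is 1 of 13769 transcripts, with the log2 fold change of Heavy minus Control on the x axis and -log10 of the unadjusted p on the y axis, and the dashed line marks a p of 0.05. The 10 higher (red) and 10 lower (blue) transcripts with the lowest p among those with at least 10 counts in each library are coloured, and 419 points beyond a log2 fold change of 4 in either direction lie outside the axis.

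The transcripts nearest to a difference were read from the 8231 that had at least 10 counts in each of the 16 libraries, of which 566 (6.88%) had an unadjusted p under 0.05, 239 higher (2.9%) and 327 lower (3.97%). The 10 higher and the 10 lower ones with the lowest p are described here. Their p-values chose them and are given as a description. In edgeR's test none passed the adjustment, with adjusted p-values from 0.368 to 0.615, while DESeq2 called 14 of the 20 and limma-voom 1.

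STMN1, which encodes stathmin 1, a protein that destabilizes microtubules, was the highest-ranked of these (chr1:198894363-198900765, Mmul_10). Its level was 9.62, 8.65, 8.21, 10.5 and 2.24 CPM in Heavy replicates 1 to 5, against a lowest of 0.549, a median of 1.47 and a highest of 3.70 CPM in the 11 controls. The 4 Heavy drinkers of cohort 1 lay above every control, while the 1 Heavy drinker of cohort 2 lay inside the control range. The log2 fold change was 2.11 (SE 0.41, edgeR adjusted p = 0.368), and it was 2.46 in cohort 1 alone (edgeR adjusted p = 0.0715). DESeq2 gave an adjusted p of 0.000315 and limma-voom one of 0.041 for it. Controls were at 0.549 to 2.78 CPM in cohort 1 and at 0.997 to 3.70 CPM in cohort 2. Very Heavy drinkers were higher in the first cohort, with 8.46 to 12.9 CPM in the 3 of cohort 1 and 0.199 to 4.34 CPM in the 6 of cohort 2.

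CDC42, a small GTPase that organizes actin, and KIF3A, a motor subunit of kinesin-2, were also among the 10 higher candidates. CDC42 was at 12.5, 10.7, 8.93, 13.5 and 6.81 CPM in the Heavy drinkers and at 3.17 to 8.39 CPM in controls, with a median of 5.40, so 4 of the 5 Heavy drinkers exceeded every control. Its log2 fold change was 0.90 (SE 0.25, edgeR adjusted p = 0.615). KIF3A was at 21.3, 17.7, 32.6, 22.0 and 16.3 CPM against 7.45 to 18.6 CPM, with a log2 fold change of 0.77 (SE 0.20, edgeR adjusted p = 0.615), and 3 Heavy drinkers exceeded every control. Without Heavy replicate 3, the highest of them, the KIF3A difference was 0.58.

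SIKE1, an inhibitor of the kinases that switch on the interferon response, and SAP30, a subunit of the Sin3 histone deacetylase complex, separated the groups. SIKE1 was at 31.2, 30.0, 37.1, 30.1 and 26.4 CPM in Heavy drinkers and between 18.7 and 25.9 CPM in controls (log2 fold change 0.44, SE 0.099). SAP30 was at 12.2, 11.8, 14.6, 14.4 and 10.4 CPM against 7.30 to 10.3 CPM in controls (log2 fold change 0.52, SE 0.12). In both, Heavy replicate 5 was the lowest Heavy drinker and lay close to the highest control. GMNN, which encodes the replication inhibitor geminin, was at 21.5, 19.2, 21.3, 19.6 and 19.9 CPM, all above the 11.4 to 18.0 CPM of the controls (log2 fold change 0.37, SE 0.10). ZC3H15, a zinc finger protein, was at 107 to 127 CPM in Heavy drinkers and at 78.1 to 107 CPM in controls, with a log2 fold change of 0.29 (SE 0.075).

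For the remaining higher transcripts the groups overlapped. CCT6A, a subunit of the chaperonin that folds actin and tubulin, was at 195 to 219 CPM against 170 to 195 CPM, with a log2 fold change of 0.20 (SE 0.052). HSPA4L, an Hsp110-type chaperone, was at 79.7 to 137 CPM against 57.8 to 91.6 CPM, and ZNF596, a zinc finger gene, at 20.1 to 24.2 CPM against 13.9 to 21.4 CPM. For both, 3 of the 5 Heavy drinkers exceeded every control, and without Heavy replicate 1 the HSPA4L difference of 0.45 was 0.30.

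LMF1, a chaperone of the endoplasmic reticulum needed for active lipoprotein lipase, led the lower transcripts (chr20:873272-978908). It was at 5.03, 2.84, 3.58, 2.92 and 3 CPM in Heavy drinkers and at 3.77 to 11.0 CPM, with a median of 7.35, in controls. The log2 fold change was -1.16 (SE 0.24, edgeR adjusted p = 0.457), and 4 Heavy drinkers lay below every control, the one of cohort 2 among them. The 3 Very Heavy drinkers of cohort 1 had LMF1 levels of 2.34 to 2.73 CPM and the 6 of cohort 2 levels of 3.03 to 13.8 CPM.

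NTSR2, a neurotensin receptor found mainly on astrocytes, was at 73.0, 65.8, 80.2, 78.6 and 87.6 CPM in Heavy drinkers against 86.9 to 152 CPM in controls, with a median of 103 (log2 fold change -0.49, SE 0.12, edgeR adjusted p = 0.615). Only Heavy replicate 5 reached the control range. CPT1B, which carries long-chain fatty acids into mitochondria, was at 4.44 to 8.25 CPM against 5.86 to 13.7 CPM, with the cohort 2 animal the lowest Heavy drinker (log2 fold change -0.59, SE 0.15).

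VAPB, a membrane protein of the endoplasmic reticulum that tethers it to other organelles, was at 22.8, 25.9, 32.1, 24.9 and 26.2 CPM against 28.9 to 45.3 CPM (log2 fold change -0.42, SE 0.11). All Heavy drinkers but replicate 3 were below every control. The adaptor GAB1, which links growth factor receptors to PI3-kinase, was at 21.9 to 31.2 CPM against 30.6 to 39.3 CPM (log2 fold change -0.43, SE 0.091). NPRL3, a subunit of the GATOR1 complex that restrains mTORC1, was at 6.90, 8.37, 7.71, 9.15 and 9.77 CPM against 9.19 to 16.4 CPM (log2 fold change -0.60, SE 0.14). In GAB1 and NPRL3 too, the single Heavy drinker inside the control range was that of cohort 2.

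CCNT2, a cyclin of the elongation factor P-TEFb, was at 3.85 to 7.75 CPM against 6.51 to 12.4 CPM (log2 fold change -0.80, SE 0.20). STARD9, a mitotic kinesin, was at 26.3 to 42.0 CPM against 38.7 to 60.5 CPM, and LLGL1, a cell polarity gene, at 48.1 to 74.2 CPM against 59.9 to 89.7 CPM. PRR18, a proline-rich protein, was at 38.3 to 49.3 CPM against 47.3 to 80.4 CPM. Differences of these last 3 were -0.52, -0.43 and -0.42 on the log2 scale, with 4, 3 and 4 Heavy drinkers below every control.

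**Figure D2:**
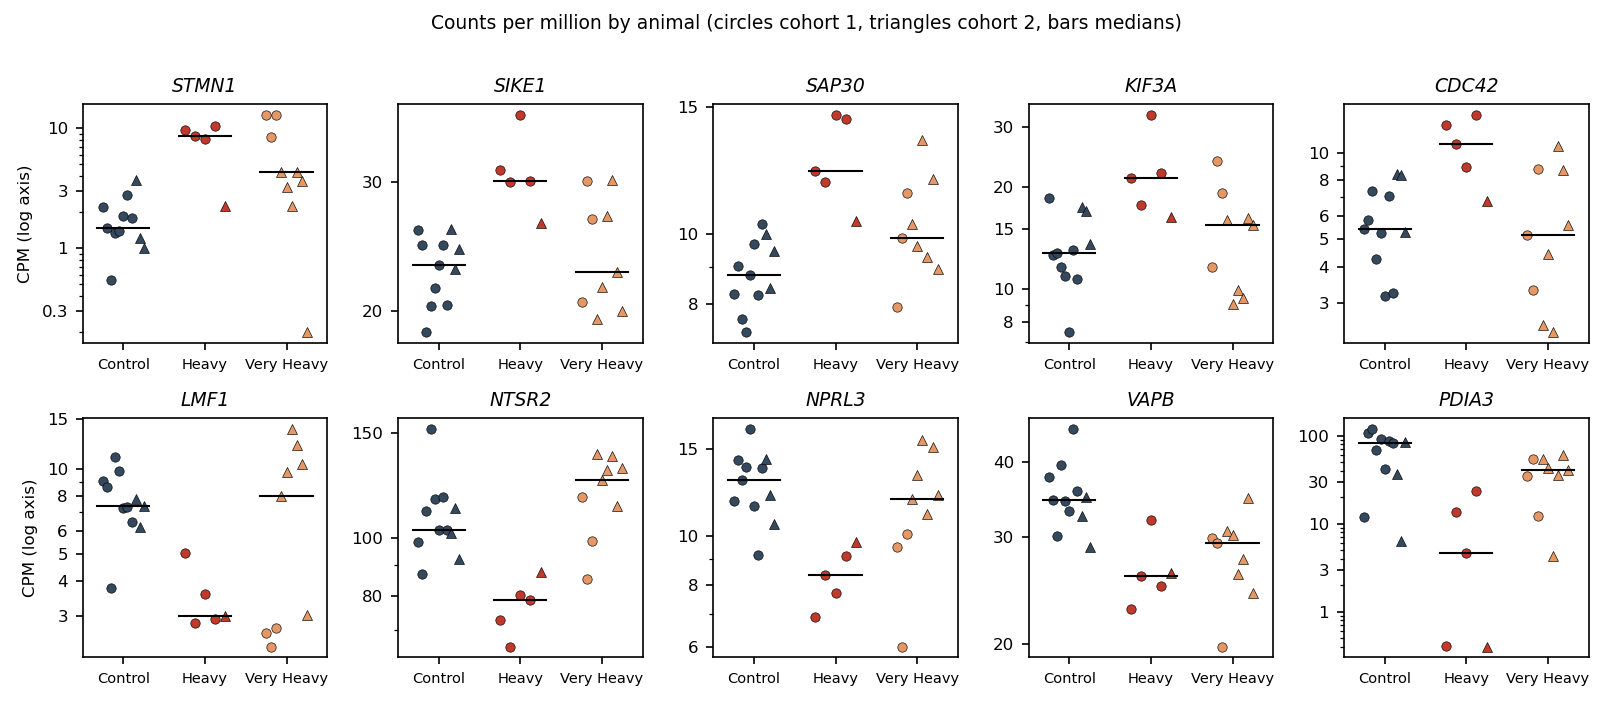
Levels in CPM on a log axis are drawn for 10 transcripts, 1 point per animal, in Control (11), Heavy (5) and Very Heavy (9) macaques, with circles for cohort 1, triangles for cohort 2 and bars at the group medians. STMN1, SIKE1, SAP30, KIF3A and CDC42 have higher Heavy medians than Control medians and LMF1, NTSR2, NPRL3, VAPB and PDIA3 lower ones, and the Heavy triangle is the Heavy animal nearest the controls for STMN1, SIKE1, SAP30, KIF3A, CDC42, NTSR2 and NPRL3.

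Across all 13769 transcripts, the Heavy and Control levels in CPM did not overlap for 7 (0.0508%). The 5 (0.0363%) with every Heavy drinker above every control were SAP30, ZC3H15, GMNN, SIKE1 and RRAGD, and the 2 (0.0145%) with every Heavy drinker below were TMEM151A and HEXD. RRAGD, TMEM151A and HEXD were named after their values were seen. Drawing 5 of 16 libraries can be done in 4368 ways, so among 13769 transcripts a few are expected not to overlap by chance. Whether 7 exceeds that number was not tested. RRAGD, a Rag GTPase of the amino acid branch of mTORC1 signalling, was at 15.1 to 18.2 CPM in Heavy drinkers and 10.4 to 14.8 CPM in controls (log2 fold change 0.39, SE 0.12). The membrane protein gene TMEM151A was at 20.0 to 24.2 CPM against 25.4 to 44.5 CPM (log2 fold change -0.47, SE 0.13). HEXD, a hexosaminidase, was listed at 0 in all 5 Heavy drinkers and at 3 to 41 counts in controls, and 4 of the 9 Very Heavy drinkers were also at 0.

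Most candidates that were higher were poor in G and C and most that were lower were rich in them. The median GC content of the RefSeq transcripts was 40.6% for the 10 higher and 57.4% for the 10 lower candidates. The windows below illustrate this difference with coding sequence of 2 lower and 2 higher candidates. They were chosen by their GC share and are no test of the difference. Each is the stretch of 90 bases, within 1 coding exon of the RefSeq Mmul_10 annotation, whose GC share is nearest that of its whole transcript, read 5′ to 3′ on the coding strand with G and C in capitals.
LMF1: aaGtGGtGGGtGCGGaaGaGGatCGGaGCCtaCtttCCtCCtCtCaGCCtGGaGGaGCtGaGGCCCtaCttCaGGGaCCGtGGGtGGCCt
NTSR2: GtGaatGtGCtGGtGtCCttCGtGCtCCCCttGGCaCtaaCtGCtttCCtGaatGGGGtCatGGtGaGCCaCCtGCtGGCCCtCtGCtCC
SIKE1: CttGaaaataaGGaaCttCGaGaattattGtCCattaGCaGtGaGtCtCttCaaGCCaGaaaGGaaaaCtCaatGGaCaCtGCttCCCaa
ZC3H15: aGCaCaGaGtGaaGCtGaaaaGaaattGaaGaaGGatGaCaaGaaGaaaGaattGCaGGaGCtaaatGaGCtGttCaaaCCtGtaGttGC
The LMF1 window lies at chr20:874214-874303 on the minus strand and holds 56 G or C, and that of NTSR2 at chr13:97124093-97124182 on the plus strand holds 53. Those of SIKE1, at chr1:109442374-109442463, and ZC3H15, at chr12:73606119-73606208, both on the plus strand, hold 36 each. Against the median of 50.5% over all transcripts with at least 10 counts in each library, GAB1, CCNT2 and VAPB were exceptions among the lower candidates, at 40.3%, 37.6% and 45.1% GC, and SAP30 among the higher ones, at 51.8%.

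The same gradient ran through the whole table. Over the 7985 transcripts with a GC value and at least 10 counts in each library, the Spearman correlation of GC content with the log2 fold change was -0.40 (Pearson -0.35), a value across transcripts that share the same 16 libraries and are not independent. The median log2 fold change was 0.10 for the 908 transcripts with up to 40% GC, where 71.5% were higher in Heavy drinkers, and -0.15 for the 1527 above 60% GC, where 22.3% were. Per library, the trend was summarised as the log2 level at 60% GC minus that at 40% GC. It was -0.245, -0.0295, -0.0644, -0.222 and -0.0895 in Heavy drinkers, all below 0, and between -0.124 and 0.342 in controls, with a median of 0.0231. The cohort-adjusted difference was -0.197, with p = 0.00707 in a two-sided exact permutation test over the 1980 assignments within cohorts, for 1 measure that was added after the data were seen.

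After each library's GC trend had been removed, 0 transcripts passed an adjusted p of 0.05 (lowest 0.11) and 847 (6.15%) had an unadjusted p under 0.05, as did 962 (6.99%) in cohort 1 alone. Of the 239 higher and 327 lower transcripts with at least 10 counts in each library, 133 and 149 still had a p under 0.05. All 20 candidates kept their direction and a p under 0.05, with STMN1 at 2.07, CDC42 at 0.81, LMF1 at -1.01 and NTSR2 at -0.39 on the log2 scale. They had been chosen by the lowest p in these same 16 libraries, which made that outcome likely beforehand. The share of the GC trend in the candidates' differences was not otherwise tested.

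**Figure D3:**
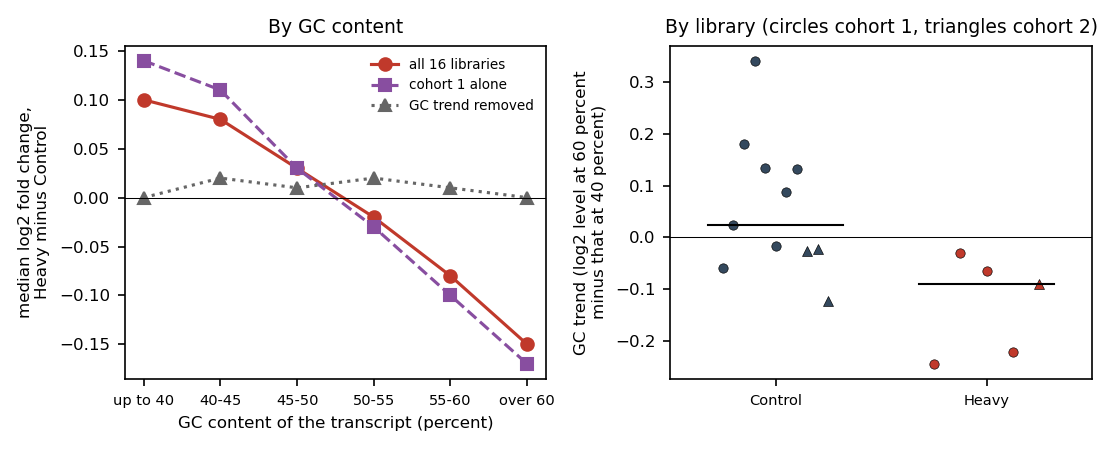
On the left, the median log2 fold change of Heavy minus Control is drawn for 6 classes of transcript GC content, from 0.10 to -0.15 over all 16 libraries, with the same medians in cohort 1 alone and after removal of each library's GC trend. On the right, the GC trend of each library (log2 level at 60% GC minus that at 40%) is drawn by group with the median as a bar, where all 5 Heavy drinkers lie below 0.

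Dopamine neuron genes varied more between animals of a group than between the groups. TH, the rate-limiting enzyme of dopamine synthesis, was at 77.6, 712, 5.58, 109 and 35.3 CPM in Heavy drinkers and at 5.81 to 826 CPM, with a median of 115, in controls. The log2 fold change was -0.78 with a 95% interval from -3.46 to 1.91. SLC6A3, the dopamine transporter, was at 71.4, 326, 10.6, 112 and 33.9 CPM against 6.35 to 802 CPM, with a log2 fold change of -1.10 (95% interval -3.70 to 1.51). The vesicular transporter SLC18A2 and the decarboxylase DDC followed the same animals, with 92.3 and 123 CPM in Heavy replicate 2 and 4.85 and 2.58 CPM in replicate 3. Leaving out 1 library moved the TH difference between -2.36 (Heavy replicate 2) and -0.43 (Control replicate 5), and that of SLC6A3 between -2.04 (Heavy replicate 2) and -0.63 (Control replicate 3). KCNJ6, the GIRK2 channel subunit, was at 1.59 to 6.62 CPM against 3.35 to 16.6 CPM (log2 fold change -0.55, SE 0.39, and -0.32 without Heavy replicate 3). Of the 14 dopamine neuron markers tested, 0 had an unadjusted p under 0.05. Their summed level ranged from 62.0 to 1602 CPM in Heavy drinkers and from 55.7 to 2054 CPM in controls, so some libraries of both groups labelled as VTA held few dopamine neuron transcripts. The intervals above leave room for changes of several-fold in either direction.

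**Figure D4:**
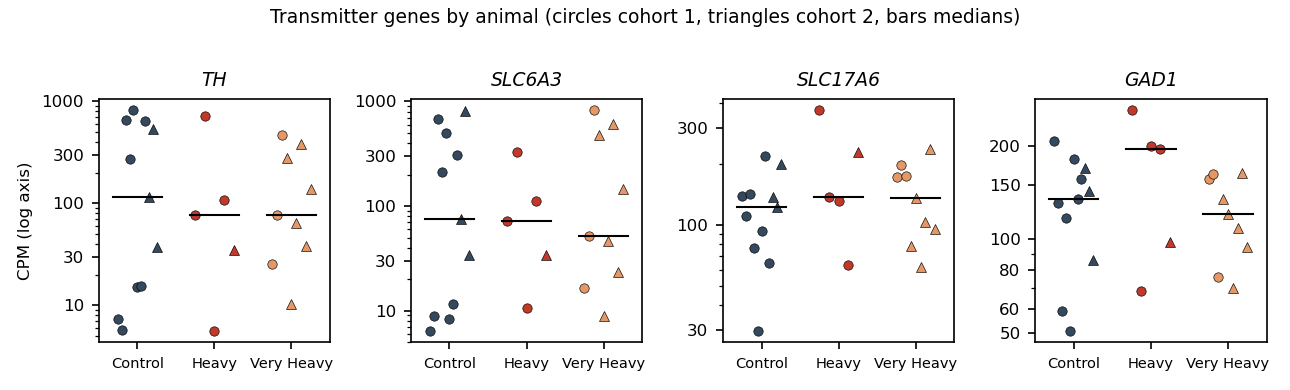
Levels in CPM on a log axis are drawn by animal for TH and SLC6A3 (dopamine neurons), SLC17A6 (glutamate neurons) and GAD1 (GABA neurons) in Control (11), Heavy (5) and Very Heavy (9) macaques, with circles for cohort 1, triangles for cohort 2 and bars at the medians. TH spans 5.58 to 712 CPM among Heavy drinkers and 5.81 to 826 CPM among controls, and the groups overlap in every panel.

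Markers of other cell types were compared through the mean log2(CPM + 1) of each list, in exact two-sided permutation tests within cohorts with p-values adjusted over the 13 lists. General neuron markers were at 7, 6.60, 6.01, 6.08 and 6.59 against 5.37 to 6.46 in controls. The cohort-adjusted difference was 0.444 (exact p = 0.0389, adjusted over the 13 lists 0.506) and 3 of the 5 Heavy drinkers exceeded every control. Without Heavy replicate 1, it was 0.293 (exact permutation p = 0.141). On this list, SYT1, ELAVL4, STMN2 and ENO2 were at 0 in some of the 16 libraries. SYT1 had 257, 0, 0, 0 and 53 counts in Heavy drinkers and was at 0 in 9 of 11 controls. The part of such transcripts in the difference was not tested. The neurofilament subunits had the lowest p-values on this list, with NEFL at 2770, 3396, 3862, 1225 and 1470 CPM against 929 to 2981 CPM and NEFM at 4568, 8013, 7860, 1494 and 2014 CPM against 1110 to 5609 CPM. For both, the 2 animals above every control were Heavy replicates 2 and 3. Oligodendrocyte markers differed by -0.257 (exact permutation p = 0.114), at 6.78 to 7.26 against 6.69 to 7.70. No list passed the adjustment, and the other differences lay between -0.312 for dopamine neurons and 0.452 for blood, with all ranges overlapping. RBFOX3, SLC1A2 and ALDH1L1, defining markers of neurons and astrocytes, were at 0 in all 16 libraries, so a 0 in this table cannot be read as an absence of the gene's other transcripts.

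Genes of the systems most studied in alcohol use were next grouped into 27 lists, in which 0 transcripts passed the adjusted threshold. Counts at an unadjusted p under 0.05 are given for each and are to be read against 7.36% of all transcripts. In the lists of dopamine synthesis and breakdown, dopamine receptors and partners, opioids, and CRF and corticosteroid signalling, 1 of 12, 2 of 15, 1 of 7 and 0 of 11 tested transcripts had such a p. RGS4, which shortens signalling through Gi- and Gq-coupled receptors, was at 44.6, 17.6, 17.4, 10.3 and 20.8 CPM in Heavy drinkers against 0.472 to 23.1 CPM, with a median of 7.53, in controls. All 5 Heavy drinkers lay above the control median and 1 above every control, and the log2 fold change was 1.57 (SE 0.55, edgeR adjusted p = 0.615). RGS9, another such regulator, was at 0 in all 5 Heavy drinkers, in 8 of 11 controls and in all 9 Very Heavy drinkers. The kappa opioid receptor OPRK1 was at 2.45 to 13.9 CPM against 1.83 to 23.1 CPM, and its peptide precursor PDYN at 3.58 to 26.7 CPM against 3.89 to 36.7 CPM, with differences of -0.13 (SE 0.52) and -0.31 (SE 0.57). Leaving out 1 library moved PDYN between -1.07 (Heavy replicate 2) and -0.04 (Control replicate 5). PENK, the enkephalin precursor, differed by -0.09 (SE 0.45). FKBP5, which damps the glucocorticoid receptor, was at 64.5 to 92.3 CPM against 51.1 to 104 CPM (0.17, SE 0.17), and HSD11B1, which regenerates active cortisol, at 6.17 to 31.3 CPM against 3.55 to 21.3 CPM (0.76, SE 0.44). Without Heavy replicate 3 the HSD11B1 difference was 0.39.

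Among receptors for fast transmission, 1 of 15 GABA receptor, 2 of 14 ionotropic glutamate receptor and 0 of 8 nicotinic receptor transcripts had an unadjusted p under 0.05. GRIN2A, an NMDA receptor subunit, was at 12.1, 16.9, 11.8, 5.93 and 11.4 CPM against 3.76 to 13.9 CPM, with a median of 7.27 (log2 fold change 0.57, SE 0.27). Its unadjusted p in edgeR's test was 0.0495, and 0.0647 with the GC trend removed, and without Heavy replicate 2 the difference was 0.38. The GABA receptor transcript was GABRG1, a gamma subunit, with 0, 52, 0, 0 and 0 counts against 0 in 10 of 11 controls. GABRQ, the theta subunit of the GABA-A receptor, did not have such a p and was at 4.30 to 11.8 CPM against 5.39 to 31.6 CPM (log2 fold change -0.81, SE 0.38). SLC17A6, the vesicular glutamate transporter of midbrain neurons, was at 371, 137, 131, 63.5 and 228 CPM against 29.7 to 218 CPM (0.67, SE 0.39), and GAD1, which makes GABA, at 261, 68.1, 200, 195 and 98.2 CPM against 50.7 to 207 CPM (0.31, SE 0.34). Heavy replicate 1 was the highest animal of either group for both, and without it the differences were 0.18 and 0.09. SLC17A6 is 1 of 5 glutamate neuron markers tested, whose median was -0.62, and 0.12 over the 2 with at least 10 counts in each library. SLC17A7, another vesicular glutamate transporter, was at -0.42 (SE 0.42). The transcription factor BARHL1, with 0 counts in 2 Heavy drinkers, was at -1.16 (SE 1.2). The excitability channel and vesicle release lists had 0 of 17 and 0 of 17 such transcripts, and the synaptic adhesion, axon guidance and microtubule lists 1 of 20, 2 of 20 and 1 of 12. The axon guidance pair was the receptor PLXNB1 (-0.26, SE 0.091) and the semaphorin SEMA7A (0.38, SE 0.16). With the GC trend removed, PLXNB1 was at -0.15 (unadjusted p = 0.121 in edgeR's test) and SEMA7A at 0.48 (0.0115). CADM2, a synaptic adhesion molecule, was at 9.84 to 18.7 CPM against 8.47 to 15.1 CPM (0.34, SE 0.17).

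Most myelin and cholesterol genes had negative fold changes, a lean that was not itself tested. In the myelin list, 10 of the 12 transcripts with at least 10 counts in each library were lower in Heavy drinkers, with a median log2 fold change of -0.24 against -0.01 over all such transcripts, and 2 of 14 tested had an unadjusted p under 0.05. MAL, a proteolipid of compact myelin, was at 203, 136, 199, 222 and 127 CPM against 180 to 325 CPM (-0.42, SE 0.13), with 2 Heavy drinkers below every control. FA2H, which makes the hydroxylated lipids of myelin, was at 210 to 341 CPM against 234 to 478 CPM (-0.24, SE 0.11), and MBP at 1892 to 3459 CPM against 2046 to 4603 CPM (-0.30, SE 0.17). With the GC trend removed, the myelin median was -0.18 and the cholesterol median -0.12. MAL was then at -0.31 with an unadjusted p of 0.028 in edgeR's test, and FA2H at -0.13 with one of 0.215. NEU4, a sialidase on the oligodendrocyte precursor list, was at 8.68, 5.69, 4.53, 3.65 and 12.0 CPM against 3.97 to 29.0 CPM, with a median of 16.2 (-1.15, SE 0.34). Over all 8231 such transcripts, 3958 were higher, and in the GC class from 50% to 55%, which holds the median GC of both lists, 45.5% were. In the cholesterol list, 13 of 15 such transcripts were lower (median -0.12) and 2 of 16 tested had a p under 0.05. These were SREBF2, the transcription factor that switches on sterol synthesis, at 356 to 426 CPM against 422 to 528 CPM (-0.22, SE 0.070), and DHCR7, the last enzyme of the pathway (-0.31, SE 0.13). With the GC trend removed, neither kept an unadjusted p under 0.05 in edgeR's test (0.0738 and 0.0740). The astrocyte gene GFAP was at 44.1 CPM in Heavy replicate 2 and at 2.07 to 4.99 CPM in the other 4, inside the 0.410 to 9.29 CPM of controls.

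Of 16 chaperone and unfolded protein response transcripts with at least 10 counts in each library, 13 had positive fold changes, with a median of 0.09. With the GC trend removed the median was 0.07. Over all 8231 such transcripts 3958 were higher, and 57.8% were in the GC class from 45% to 50%, which holds this list's median GC. The lean was not tested. PDIA3, a disulphide isomerase that folds glycoproteins in the endoplasmic reticulum, was at 0.406, 13.5, 4.71, 23.9 and 0.403 CPM in Heavy drinkers and at 6.36 to 119 CPM, with a median of 84.0, in controls. In counts these were 10, 336, 104, 556 and 9 against 146 to 3028. The log2 fold change was -3.25 (SE 0.87, edgeR adjusted p = 0.615), DESeq2 called PDIA3 with an adjusted p of 0.00418, 3 Heavy drinkers lay below every control, and the Very Heavy drinkers were at 4.29 to 61.2 CPM. HSPA5, the main chaperone of the same compartment, was at 322 to 534 CPM against 306 to 424 CPM with a difference of 0.26 (SE 0.11). The chaperone CALR had 0, 52, 7, 0 and 0 counts against 0 in 10 of 11 controls. Of the 19 chaperone and unfolded protein response transcripts tested, 3 had an unadjusted p under 0.05, as did 3 of 13 of the mTOR pathway and 2 of 16 of the VAP and contact-site list. In the mTOR list these were RHEB, its activating GTPase, at 105 to 131 CPM against 89.6 to 128 CPM (0.20, SE 0.090), the cap-binding factor EIF4E (0.92, SE 0.43) and the mTORC1 scaffold RPTOR (-0.18, SE 0.081). Once the GC trend was removed, RHEB, EIF4E and RPTOR had an unadjusted p of 0.23, 0.0783 and 0.424 in edgeR's test. EIF4E was at 0.56 without Heavy replicate 1 and RPTOR at -0.11 without Heavy replicate 4. In the contact-site list they were VAPB and the lipid transfer protein OSBPL5, at 12.7 to 18.6 CPM against 15.1 to 22.1 CPM (-0.38, SE 0.12).

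In the other lists, such transcripts are again to be read against 7.36% of all. There was 1 of 9 for ethanol and aldehyde metabolism, 1 of 19 for antioxidant defence, 1 of 17 for innate immunity, 1 of 21 for chromatin enzymes and 1 of 15 for the clock. The first was ALDH3A2, a fatty aldehyde dehydrogenase, with 74, 41, 0, 0 and 33 counts against 0 to 27 in controls. ADH5, the widely expressed class III alcohol dehydrogenase, was at 82.7 to 112 CPM against 78.8 to 102 CPM (0.15, SE 0.082) and did not have such a p. The antioxidant transcript was the quinone reductase NQO1, at 1.95, 3, 3.85, 3.22 and 4.71 CPM against 0 to 3.22 CPM, with an unadjusted p of 0.0481 in edgeR's test and of 0.0523 with the GC trend removed. The immune transcript was IL1B, a proinflammatory cytokine, at 3.17, 6.97, 2.45, 4.81 and 3.50 CPM against 1.38 to 4.12 CPM (0.68, SE 0.32, and 0.44 without Heavy replicate 2). The chromatin enzyme was the histone methyltransferase KMT2B, at 42.3, 40.9, 41.8, 44.3 and 59.7 CPM against 42.5 to 62.2 CPM (-0.29, SE 0.10). Heavy replicates 4 and 5 were inside the control range and the other 3 below it, and in cohort 1 alone the KMT2B difference was -0.45 (edgeR adjusted p = 0.0715). With the GC trend removed over all 16 libraries it was -0.13, with an unadjusted p of 0.181 in edgeR's test. The immediate early, neurotrophic, mitochondrial genome, oxidative phosphorylation and ribosomal protein lists had 0 of 13, 0 of 12, 0 of 13, 0 of 30 and 0 of 34.

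**Figure D5:**
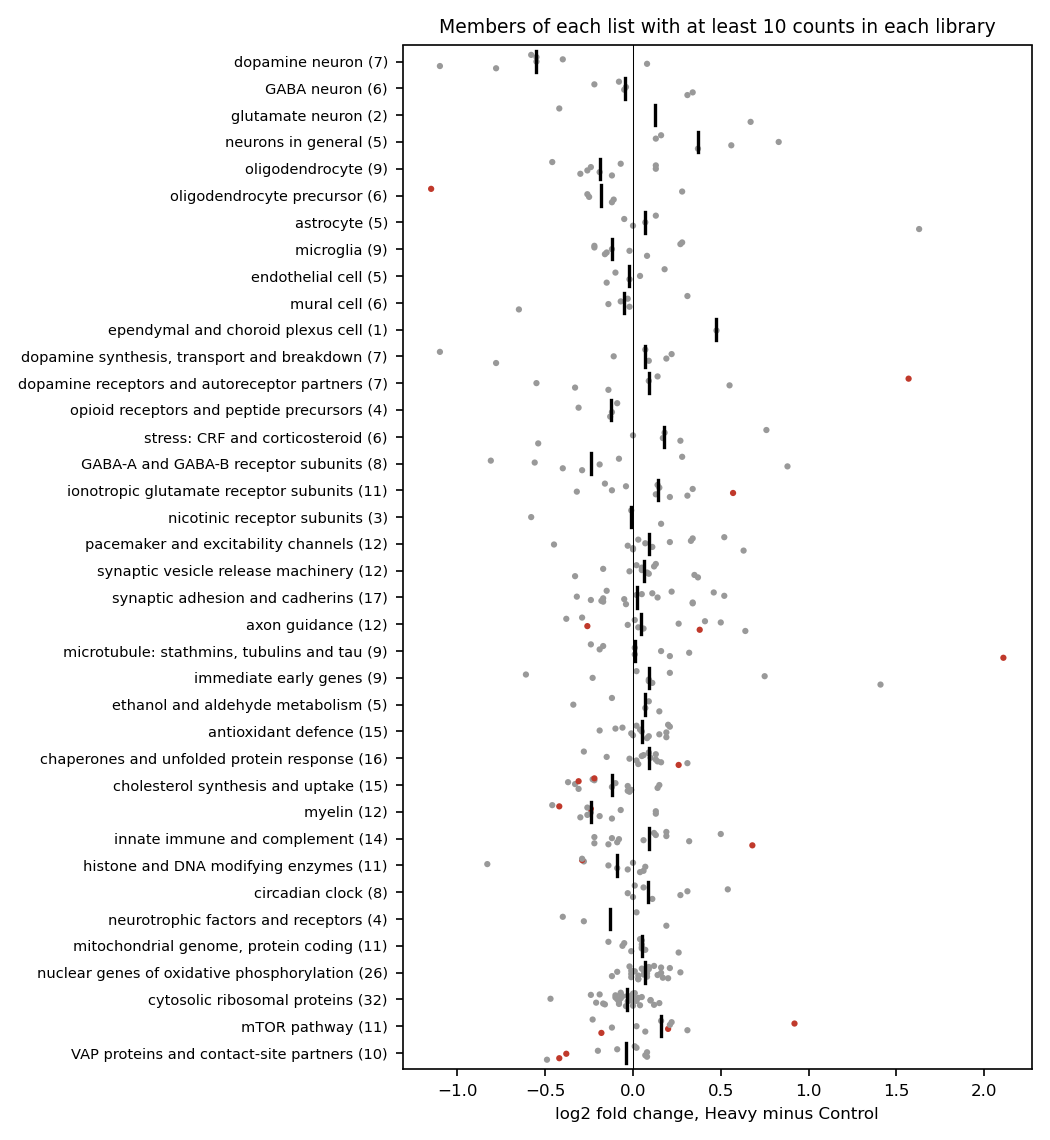
Each point is the log2 fold change of Heavy minus Control of 1 list member with at least 10 counts in each of the 16 libraries, red where the unadjusted p was under 0.05, with the list's median as a black bar and the number of members in parentheses. The myelin, oligodendrocyte and cholesterol medians lie at -0.24, -0.19 and -0.12, the general neuron median at 0.37, and the median over all such transcripts at -0.01.

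A part of the differences at an unadjusted p under 0.05 came from transcripts that were listed at 0 in some animals and had counts in others. Of the 13769 transcripts, 4746 (34.5%) were at 0 in at least 1 of the 16 libraries, and so were 431 of the 1013. The tested transcripts at 0 numbered 2462, 2054, 2715, 2286 and 1537 in Heavy drinkers, against 1393 to 2206 in controls with a median of 1807, so Heavy replicate 5 lay below the control median. The cohort-adjusted difference was 358 (exact permutation p = 0.0126, adjusted over 4 library measures 0.0505), for a measure added after the data were seen, and without Heavy replicate 3 it was 259 (exact permutation p = 0.053). The part of these zeros in the excess of lower over higher transcripts was not tested. By the rule for transcripts that switch between 0 and at least 100 counts, of which there were 1615, the 3 with the lowest p were BAZ2A, PRMT7 and MAP3K5. BAZ2A, which silences ribosomal genes, had 271, 126, 65, 162 and 0 counts in Heavy drinkers and 0 in all 11 controls and all 9 Very Heavy drinkers. Among these groups it met the filter of 5 counts in 3 libraries only through the Heavy drinkers. Its adjusted p of 0.189 in edgeR's test, the lowest of all, is therefore given only as a description. PRMT7, an arginine methyltransferase, had 55, 149, 0, 0 and 53 counts against 0 in 10 of 11 controls, and MAP3K5, a stress-activated kinase, 0, 0, 543, 0 and 18 counts against 0 in 10 of 11. Very Heavy drinkers were at 0 in 4 of 9 for PRMT7 and in 5 of 9 for MAP3K5.

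Several listed genes with an unadjusted p under 0.05 were of this kind, and no fold is given for them. OPRM1, the mu opioid receptor, had 23, 0, 0, 4 and 0 counts in Heavy drinkers and 0 in all controls. GRIA2, an AMPA receptor subunit, the clock gene PER2 and the astrocyte water channel AQP4 were at 0 in all 5 Heavy drinkers. In controls they were at 0 in 7, 4 and 7 of 11 and reached 86, 294 and 67 counts, and in Very Heavy drinkers they were at 0 in 6, 5 and 5 of 9. As the table lists 1 transcript per gene, these counts do not give the level of the whole gene.

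The groups overlapped on each of the main axes of variation. The first 5 principal components of log2 CPM carried 13.4%, 9.70%, 8.55%, 7.95% and 7.29% of the variance. On the third, Heavy drinkers lay at 50.9, 67.9, 86.2, -20.3 and -11.9 against -73.2 to 18.2 in controls, so 3 animals stood apart and 2 did not (exact permutation p = 0.0162, adjusted over the 5 components 0.0808). Without Heavy replicate 3 the exact permutation p of this component was 0.0652. On the fifth, Heavy drinkers lay at 12.5, 36, -40.7, 119 and 0.105 against -32.7 to 3.53 in controls (exact permutation p = 0.0439, adjusted over the 5 components 0.11). The difference there was 37.1, and without Heavy replicate 4 it was 13.7.

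Heavy drinkers were also set against the 9 drinkers labelled Very Heavy, of which 3 were in cohort 1 and 6 in cohort 2, in a fit over all 28 libraries. At an adjusted p under 0.05, 0 of 13769 transcripts passed (0%) in edgeR's test, and 863 (6.27%) had an unadjusted p under 0.05, while DESeq2 called 74 (0.537%), of which 67 were at 0 in at least 1 of the 28 libraries. Of the 20 candidates, 6 had an unadjusted p under 0.05 against the Very Heavy drinkers, and the lowest adjusted p was 0.406. That was NTSR2, which was at 85.4 to 138 CPM in Very Heavy drinkers, with a median of 125, and the difference of Heavy minus Very Heavy was -0.57 (SE 0.13) on the log2 scale. STMN1 and CCT6A differed by 0.12 (SE 0.53) and 0.02 (SE 0.069) between the drinking groups, and GMNN by 0.05 (SE 0.13). CDC42 was at 2.37 to 10.5 CPM in Very Heavy drinkers, a difference of 0.94 (SE 0.35). RGS4 and GRIN2A differed from Very Heavy drinkers by 2.11 (SE 0.63, edgeR adjusted p = 0.624) and 1.05 (SE 0.33, edgeR adjusted p = 0.624). PDIA3 differed from Very Heavy drinkers by -2.63 (SE 0.93, edgeR adjusted p = 0.666). Both comparisons use the same 5 Heavy libraries, so a value that is unusual in these animals enters both.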

How the data were processed

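The authors trimmed reads with Trim Galore 0.6.7, quantified them with Salmon 1.9.0 against Mmul_10 and deposited estimated counts per transcript without normalization, with 1 transcript for each of 16885 gene symbols. An entry without a symbol, 1.16e-05 percent of the counts, was left out. Counts were rounded to whole numbers, and a transcript entered the test where 3 or more of the 28 libraries held 5 or more counts (13769, of which 14 were at 0 in all 16 libraries compared). The main test was edgeR 4.0.16 (TMM, robust quasi-likelihood, cohort and group) in R 4.3.3 on 16 libraries, with the SE taken as the fold change divided by the square root of F. Alternatives used DESeq2 1.42.0, limma 3.58.1 and sva 3.50.0. The edgeR step was tested on simulated counts and made 11 false calls among 13569 unchanged transcripts, beside the 10, 37 and 63 changes it recovered. Library measures were tested by two-sided exact permutation within cohorts (1980 assignments, smallest p 0.000505). Coordinates, GC content (13271 of the transcripts tested) and sequences came from RefSeq Mmul_10, and the GC trend was a smoothing spline with 5 degrees of freedom per library. Groups came from the drinking phenotype label, and cohorts from the animal numbers and the study's methods. Each library came from an animal of its own.

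Members and gene lists were chosen with earlier results of these data known. Genes were named by a rule: any with an adjusted p under 0.05, the 10 higher and 10 lower of lowest p among transcripts with at least 10 counts in each library, a set of VTA, alcohol and marker genes, up to 3 of lowest p per list, and 3 that switch between 0 and at least 100 counts. ALDH2 was not analysed here, and a few listed genes are not reported here. Intervals come from edgeR's fit, whose variance holds both the spread between libraries and the counting of reads. They do not cover the uncertainty of Salmon's estimated counts.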

Additional observations from a re-analysis of the deposited data

Results flagged for a closer look

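In the 5 Heavy drinkers, the gap between the highest or lowest animal and its nearest neighbour was compared with the whole range for each library measure and for 59 named transcripts with counts in every library, the latter on the log2(CPM + 1) scale, and it exceeded the critical share of 0.71 for 6 of 82 results. Chance gives about 1 in 20. Heavy replicate 1 lay at 140 on the second principal component, against -43.1 to 4.52 in the other 4. Heavy replicate 5, the animal of cohort 2, had 2.24 CPM of STMN1 against 8.21 to 10.5, and 59.7 CPM of KMT2B against 40.9 to 44.3. Heavy replicate 2 had 44.1 CPM of GFAP against 2.07 to 4.99, and 18.6 CPM of OSBPL5 against 12.7 to 14.1. Heavy replicate 3 had 1.59 CPM of KCNJ6 against 4.98 to 6.62. On the linear CPM scale, added after the data were seen, 7 of the 59 transcripts exceeded the critical share against 5 on the log2 scale, and 4 did on both. TH, SLC18A2 and DDC, highest in Heavy replicate 2, exceeded it in CPM alone, and KCNJ6 on the log2 scale alone. The difference between Heavy and Very Heavy drinkers was itself tested and passed for 0 transcripts in edgeR's test.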

How the results depend on the processing

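No paired analysis was possible because the labels do not tie controls to drinkers and replicate numbers follow only the order of the samples. For Heavy against Control, 0 transcripts passed an adjusted p of 0.05 in edgeR's test under every setting but the leave-one-out fits, where the count ran from 0 to 1 (without Heavy replicate 3), while DESeq2 gave 68 and limma-voom 3. The unadjusted count of 1013 was 602 with at least 10 counts in each library, a setting that tests fewer transcripts, and 823 (without Heavy replicate 1) to 1325 (without Heavy replicate 5) when 1 library was left out. Against Very Heavy drinkers, DESeq2 gave 74, the unadjusted count of 863 was 466 with at least 10 counts in each library, and leaving out 1 Heavy drinker gave 0 to 0 adjusted and 763 to 1106 unadjusted calls. The 20 candidates kept their direction under all settings run, which their choice by low p in these same libraries made likely.

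With the dopamine neuron marker level as a covariate, TH, SLC6A3, SLC18A2, DDC and OPRK1 turned to 0.22, 0.47, 0.64, 0.72 and 0.10 on the log2 scale. The first 4 of these are themselves members of that marker level, so for them the setting conditions on the value tested and bears on nothing. Under limma-voom, DDC was 0.02 and PENK 0.07, and with 1 surrogate variable OPRK1 was 0.07. Leaving out 1 library moved OPRK1 between -0.50 and 0.18, PENK between -0.28 and 0.09, and GFAP between -0.09 (without Heavy replicate 2) and 1.94. SLC18A2 ran from -2.11 to -0.28, DDC from -1.95 to -0.10, FKBP5 from 0.09 to 0.29, ADH5 from 0.11 to 0.24, CADM2 from 0.20 to 0.44, MBP from -0.38 to -0.19 and NEFL from 0.36 to 0.82. The cause was not tested.

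The general neuron marker difference of 0.444 was 0.419 (exact p = 0.0634) with labels permuted over all 16 libraries, 0.496 (exact p = 0.0747) in cohort 1 alone and 0.293 to 0.538 with 1 Heavy drinker left out. The share of the 10 most abundant transcripts differed by 0.272 percentage points, by -0.0216 in cohort 1 alone and by -1.28 to 1.83 with 1 left out, and the mitochondrial share by 0.753, with -1.01 to 2.61. With 1 left out, marker differences ran from -0.747 to 0.0195 for dopamine neurons, -0.0849 to 0.203 for GABA neurons, -0.163 to 0.0905 for serotonin neurons, -0.0739 to 0.172 for astrocytes, -0.146 to 0.0101 for microglia, -0.00347 to 0.101 for endothelial cells, -0.108 to 0.0485 for mural cells, -0.0412 to 0.472 for ependymal cells, -0.603 to -0.0902 for glutamate neurons and 0.0567 to 1.03 for blood. Components 2 to 5 ran from -15.0 to 30.4, 37.3 to 64.5, -24.2 to 13.4 and 13.7 to 53.3, and the difference in transcripts at 0 from 259 to 452. The GC correction within cohort 1 was chosen after the data were seen and gave 0 adjusted and 962 unadjusted calls. With 5 Heavy drinkers, 1 of them in cohort 2, the comparison is mostly one within cohort 1.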
